A study of Mus musculus with 2 samples.

Results

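Cycling C1q macrophages are cells of mouse tumours that carry the macrophage complement genes C1qa, C1qb and C1qc together with the proliferation genes Mki67 and Top2a. They were chosen by measured values: at least 200 genes and at most 15% mitochondrial (mt-) UMIs per barcode, at least 0.3% of UMIs from the C1q genes, at least 3 UMIs of Mki67 plus Top2a, no Cd3d, Cd3e or Cd3g UMI, under 5 UMIs of Krt8 plus Krt18, under 3 of Ctsk and under 2 of Gpnmb. A UMI (unique molecular identifier) counts 1 captured RNA molecule. The rule found 1381 cells, 609 in the cepharanthine library and 772 in the vehicle library, of 9426 C1q macrophages that passed the same exclusions and of 19610 barcodes in all. They were set beside the 6546 C1q macrophages with no Mki67 or Top2a UMI, called non-cycling here, while the 1499 cells with 1 or 2 such UMIs were in neither set.

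Most tissue macrophages rest between divisions, and tumour macrophages are supplied both by blood monocytes and by local division. Division is driven by cyclin-dependent kinases: E2F factors, released from RB family proteins, raise the genes of DNA replication, and later the MYB-MuvB and FOXM1 factors raise those of mitosis, often through the CHR element and CCAAT boxes near gene starts. Mki67 coats mitotic chromosomes, Top2a untangles DNA, and Birc5 (survivin) is a subunit of the chromosomal passenger complex that corrects spindle attachment. In macrophages the growth factor receptor Csf1r promotes division, and the factor Maf restrains it.

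The 2 groups were tumours of mice given cepharanthine, a plant alkaloid (CEP), and tumours of mice given vehicle (Vehicle, spelled "Vehide" in its title). CD45-positive leukocytes were enriched with magnetic beads and sequenced with droplet 3' chemistry. According to the design text 5 biological replicates stood behind each group, yet each was sequenced as 1 library without a map from cells to mice, so animals cannot be told apart. The tumour model, strain, age, dose and schedule are not given in the sources used here. With 1 library per group, no test between groups, between cell states or over cells was made: every interval is a 95% counting interval, which leaves out the spread between animals, cells and preparations.

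The libraries held 88721774 and 81208647 UMIs, with medians of 6621 (CEP) and 6236 (Vehicle) UMIs per barcode. They shared 136 barcode sequences, and none of these belonged to a cycling cell in both. Cycling cells were deep, at medians of 15875 and 17741 UMIs and 3835 and 4002 genes, against 8205 and 9318 UMIs and 2426 and 2600 genes in non-cycling cells. Their mitochondrial share was close to that of non-cycling cells, at medians of 1.20% and 1.03% against 1.26% and 1.09%. Cells over 30000 UMIs numbered 17 and 42 among the cycling cells. Among cycling cells, 10.2% and 12.2% scored in the highest 8% of their library for simulated doublets, against 7.06% and 7.83% of non-cycling cells, and the part of doublets in the results below was not tested beyond leaving these cells out.

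The label was checked against markers. The C1q genes, which chose the cells, made up medians of 1.30% and 1.38% of UMIs in cycling cells and 1.26% and 1.33% in non-cycling cells. Birc5, which the rule did not use, was detected in 89.2% of cycling cells in CEP and 88.2% in Vehicle, against 6.90% and 6.94% of non-cycling cells. The macrophage genes Csf1r, Apoe and Lyz2 were each detected in at least 600 of the 609 CEP and 755 of the 772 Vehicle cycling cells. The summed level of 7 T cell markers in cycling cells was 4.42 and 3.33 CPM (UMIs per 1000000 UMIs of the same cells), that of 4 B cell markers 2.41 and 2.53 CPM, that of 4 NK markers 5.32 and 13.8 CPM and that of 6 dendritic cell markers 5.42 and 6.07 CPM. Other marker sums were higher: 736 and 453 CPM for 7 neutrophil markers, 497 and 595 CPM for 3 plasmacytoid dendritic cell markers, of which Bst2 held 4923 and 8174 UMIs, and 221 and 222 CPM for 3 osteoclast markers, of which Acp5 held 2195 and 3063 UMIs. Macrophages also express Bst2 and Acp5, and in non-cycling cells these 3 sums were 1735 and 1249, 539 and 595, and 319 and 277 CPM. Cd3d, Cd3e and Cd3g are among the T cell markers and were at 0 by the rule, and the 3 erythroid markers were at 0 in both. Fibroblast markers summed to 23.7 CPM in CEP and 0.940 CPM in Vehicle cycling cells, and their part in the results was not tested.

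Mki67 and Top2a gave the cells a wide range, with medians of 9 and 10 UMIs of both together and maxima of 38 and 66. Mki67, not needed alone, was at 0 in 11 and 12 cycling cells, and Top2a in 53 and 85. Just outside the threshold, at 2 UMIs, stood 173 and 196 cells, of which 37.0% and 40.3% had a Birc5 UMI. Just inside, at 3 UMIs, stood 70 and 95 cells, of which 60.0% and 56.8% did, and from 10 to 19 UMIs the share was 96.7% and 97.5%. The largest rise between neighbouring single counts in CEP lay at the threshold, while in Vehicle the rise from 1 to 2 UMIs, 18.5% to 40.3%, was the largest. The median sum of the G2/M list went from 15 and 17 UMIs at 2 to 32 and 30 UMIs at 3.

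**Figure D1:**
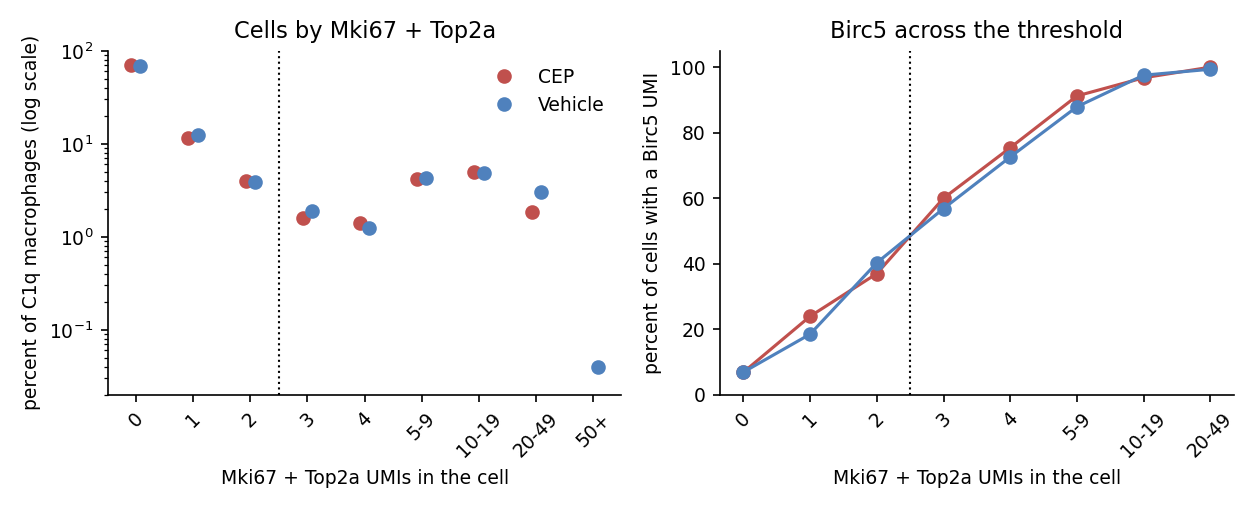
Left, the percent of C1q macrophages of each library (log axis) by their UMIs of Mki67 plus Top2a, with 1 point per library and bin. Right, the percent of cells of each bin with a Birc5 UMI. The dotted line is the threshold of 3 UMIs, and Birc5 goes from 6.90% and 6.94% of cells at 0 to 96.7% and 97.5% at 10 to 19 UMIs.

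Free RNA can place UMIs in cells that do not make them, so the same count was taken in mature neutrophils, which do not divide, taken as barcodes with at least 0.5% of UMIs from S100a8 and S100a9 and no C1q, Ngp, Camp, Ltf, Mpo, Elane or Cd3 UMI. At least 1 Mki67 or Top2a UMI was found in 7 of 1221 CEP neutrophils (0.573%) and 13 of 1447 Vehicle neutrophils (0.898%), against 29.5% and 31.5% of C1q macrophages. Neutrophils were shallower, at medians of 1480 and 1592 UMIs against 9488.5 and 10694. With each cell thinned to 1000 UMIs the shares were 0.210% and 0.495% in neutrophils against 9.40% and 9.94% in C1q macrophages. No neutrophil reached 3 UMIs, which allows a share of up to 0.246% and 0.207%, taken as 3 cells of the total, or up to 0.302% and 0.255% by the exact binomial interval. The count of 3 was not thinned, so it was taken in much shallower cells. Leaving out neutrophils with a C1q UMI also leaves out barcodes that carry free macrophage RNA. The neutrophil shares can therefore be too low as a measure of free RNA.

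Cycling cells made up 13.9% (12.9 to 14.97, exact binomial) of C1q macrophages in CEP and 15.3% (14.3 to 16.3) in Vehicle. The ratio of these shares, CEP over Vehicle, was 0.910 (0.824 to 1.003). Over all filtered barcodes the shares were 6.38% and 7.77%, a ratio of 0.821 (0.741 to 0.909). The threshold counts raw UMIs and Vehicle macrophages were deeper, and with each cell thinned to 5000 UMIs the shares were 10.3% and 10.4%. Within bands of depth the order was the other way: between 10000 and 15000 UMIs 14.1% of CEP and 10.8% of Vehicle macrophages were cycling, a ratio of 1.31 (1.07 to 1.60), and between 15000 and 20000 UMIs 35.7% and 29.2%, a ratio of 1.22 (1.04 to 1.43). Between 20000 and 30000 UMIs the shares were 62.8% and 58.8%. The direction of the difference in cycling share thus depends on how depth is handled, and no order of the groups is read from it.

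Cycling and non-cycling cells were next compared gene by gene within each library, on UMIs summed over the cells of a state. Among 7428 genes with a mean of at least 10 CPM, 384 were at least 2-fold higher in cycling cells in both libraries (5.17% of genes) and 26 at least 2-fold lower in both (0.35%). Within CEP 410 genes were past this fold upward (5.52%) and 43 downward (0.579%), and in Vehicle 406 (5.47%) and 50 (0.673%). Of the upward genes 93.7% and 94.6% were past it in the other library too, and of the downward genes 60.5% and 52.0%. Of the 384 higher genes, 181 belonged to the cell cycle lists described next. Since the cells were picked for a pair of cell cycle genes, higher cell cycle genes describe the choice and are not independent of it. The median of all genes was 0.09 and 0.08 on the log2 scale, and list medians are read beside it.

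**Figure D2:**
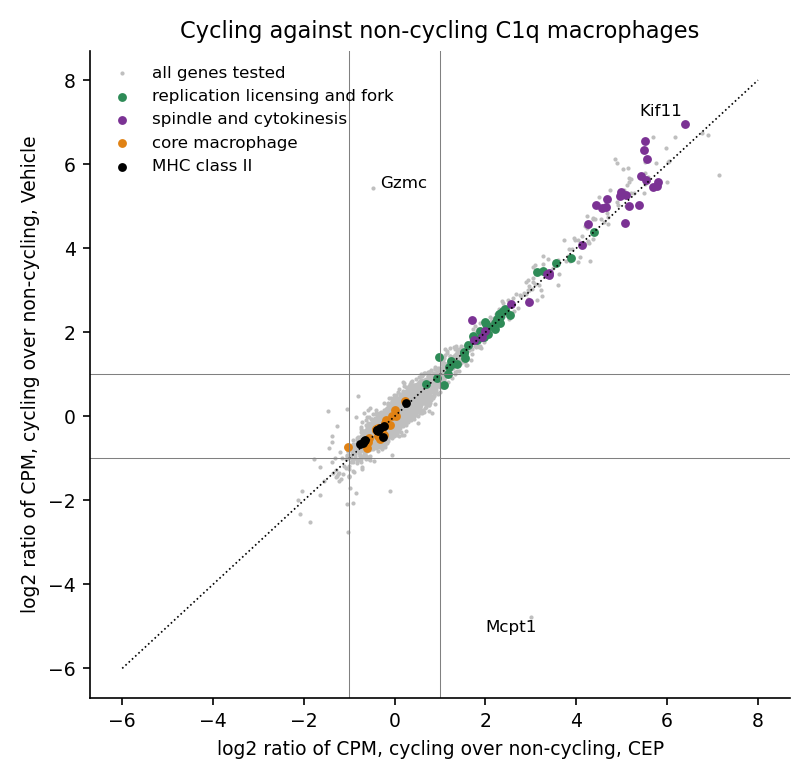
Each point is 1 gene: the log2 ratio of its CPM in cycling over non-cycling C1q macrophages in CEP (x axis) and Vehicle (y axis). Thin lines mark a 2-fold change and the dotted line equality. Spindle genes reach the highest ratios of the coloured lists, replication genes lie lower, and most core macrophage and MHC class II genes lie below 0, while Mcpt1 and Gzmc stand far off the diagonal.

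DNA replication genes were higher as a group: 35 of 39 tested genes of origin licensing and the fork passed the 2-fold limit in both libraries, with a median log2 ratio of 1.99 and 2.03. Mcm3, a subunit of the replicative helicase, was at 117 and 120.0 CPM in cycling cells of CEP and Vehicle against 34.8 and 33.3 CPM in non-cycling cells, log2 ratios of 1.75 and 1.85. Pcna, the sliding clamp, was at 149 and 154 CPM in cycling cells of CEP and Vehicle against 51.5 and 54.0 CPM in non-cycling cells, and Mcm10, which activates the helicase, had ratios of 3.89 and 3.76. Rfc1, the large subunit of the clamp loader, had the lowest ratios of the list, 0.68 and 0.76. Each of the 39 exceeded the all-gene median in both libraries.

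Nucleotide synthesis was less uniform, with 10 of 18 genes past the limit and medians of 1.21 and 1.23. Rrm2, the regulated subunit of ribonucleotide reductase, was at 98.2 and 99.0 CPM in cycling cells of CEP and Vehicle against 3.01 and 1.65 CPM in non-cycling cells, and Tk1, thymidine kinase, had ratios of 4.24 and 4.49. Impdh2 and Nme1, of purine and nucleoside triphosphate supply, had smaller ratios of 0.82 and 0.87 and 0.43 and 0.49. Impdh2 and Nme1 thus stood below Rrm2 and Tk1 in both libraries.

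Replication-dependent histones had 10 of 14 genes past the limit, with medians of 3.42 and 3.08. The linker histone Hist1h1b was at 302 and 327 CPM in cycling cells of CEP and Vehicle against 6.57 and 7.04 CPM in non-cycling cells, and Hist1h1a had ratios of 5.99 and 5.58. The replacement linker histone H1f0, counted in the list though not replication-dependent, stayed under the limit at 0.94 and 0.96. Poly-A priming captures replication-dependent histone messages poorly, so their levels here are of the captured part.

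The spindle and cytokinesis list had the highest median of the lists. All 30 tested spindle and cytokinesis genes passed the limit, with medians of 4.82 and 5.02. Kif11, the kinesin that pushes spindle poles apart, was at 64.0 and 74.9 CPM in cycling cells of CEP and Vehicle against 0.744 and 0.592 CPM in non-cycling cells, log2 ratios of 6.39 (5.77 to 7.17) and 6.95 (6.33 to 7.72). Nusap1, which bundles spindle microtubules, was at 63.6 and 69.8 CPM in cycling cells of CEP and Vehicle against 0.861 and 0.685 CPM in non-cycling cells. Tubb5, a tubulin of all cells, was at 1287 and 1291 CPM in cycling cells of CEP and Vehicle against 324 and 316 CPM in non-cycling cells, and Ckap5, a microtubule polymerase, had ratios of 1.75 and 1.82. Spag5, a spindle-pole protein, had ratios of 5.79 and 5.58.

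Kinetochore and centromere genes passed the limit in 16 of 18 cases, with medians of 3.72 and 3.85. Cenpf was at 136 and 144 CPM in cycling cells of CEP and Vehicle against 2.07 and 2.15 CPM in non-cycling cells, and Ndc80, which binds microtubule ends, at 39.0 and 48.1 CPM in cycling cells of CEP and Vehicle against 0.704 and 0.716 CPM in non-cycling cells. Zwint, a kinetochore protein, stayed under the limit at 0.81 and 0.71. Spindle checkpoint and anaphase genes passed in 19 of 22 cases, with medians of 3.69 and 3.76. Plk1, a mitotic kinase, was at 63.1 and 67.6 CPM in cycling cells of CEP and Vehicle against 1.21 and 0.654 CPM in non-cycling cells, and Ube2c, the E2 enzyme of the anaphase-promoting complex, at 438 and 447 CPM in cycling cells of CEP and Vehicle against 14.4 and 13.6 CPM in non-cycling cells, while Anapc1, a scaffold of that complex, had ratios of only 0.75 and 0.79. Chromosome condensation and cohesion genes passed in 20 of 22 cases, with medians of 2.99 and 3.00. Esco2, which acetylates cohesin during replication, was detected in 234 and 319 cycling cells, with ratios of 6.90 (5.99 to 8.20) and 6.70 (5.94 to 7.72). By the mean CPM per cell, which adds weight to shallow cells, Esco2 stood at 4.12 and Nusap1 at 3.96 in CEP. In that setting 0.5 CPM was added to each mean, which shrinks ratios of genes scarce in non-cycling cells. The parts of the weighting and of the added value were not separated. Stag2, a cohesin subunit of resting cells too, had ratios of 0.38 and 0.44.

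Regulators divided by kind. Of 20 cyclins, kinases and inhibitors 12 passed the limit, and of 15 E2F, RB and DREAM regulators 8 did. The S and M phase cyclins Ccna2 and Ccnb1 had ratios of 5.52 and 6.05 and 5.77 and 5.49. Ccnd1, the cyclin that answers growth factors, was not higher: it was at 67.3 and 79.2 CPM in cycling cells of CEP and Vehicle against 77.8 and 87.8 CPM in non-cycling cells. Cdkn1a (p21), an inhibitor of these kinases, was at 1188 and 1123 CPM in cycling cells of CEP and Vehicle against 1436 and 1439 CPM in non-cycling cells, lower in cycling cells but under the limit, while the inhibitor Cdkn2c (p18) was higher, with ratios of 3.55 and 3.69. The repressors E2f7 and E2f8 had ratios of 5.55 and 5.92 and 2.88 and 2.92, and the mitotic activators Mybl2 and Foxm1 4.36 and 4.70 and 5.48 and 5.32. Rb1 and Rbl2, which are not the whole RB family, had ratios of 0.18 and 0.09 and 0.15 and 0.03. The medians of their list, the E2F, RB and DREAM regulators, were 1.13 and 1.02.

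DNA repair genes passed in 10 of 17 cases. Brca1 had ratios of 4.26 and 4.17, and Neil3, a glycosylase, 7.15 (6.05 to 8.92) and 5.74 (5.11 to 6.52), against non-cycling sums of 5 and 19 UMIs. Parp1, the sensor of DNA breaks named in the series title, was at 106 and 103 CPM in cycling cells of CEP and Vehicle against 72.4 and 62.6 CPM in non-cycling cells, ratios of 0.55 (0.44 to 0.66) and 0.72 (0.62 to 0.82), under the limit. Prkcz, named there too, was detected in 1 and 3 cycling cells, and the NF-kB subunits Rela and Nfkb1 had ratios of -0.08 and -0.20 and -0.20 and -0.16.

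Ranked by the smaller of its 2 ratios, Mxd3 stood first among the genes outside these lists, Mki67 and Top2a aside. It encodes a partner of MAX that is made in dividing cells, and stood at 23.3 and 21.5 CPM in cycling cells of CEP and Vehicle against 0.196 and 0.187 CPM in non-cycling cells, ratios of 6.76 (5.65 to 8.53) and 6.73 (5.71 to 8.30). Its relative Mxd4, chosen after its values were seen, had ratios of -1.15 and -0.99. Pimreg and Pbk, further genes of mitosis, had ratios of 6.05 and 6.08 and 5.98 and 6.38.

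**Figure D3:**
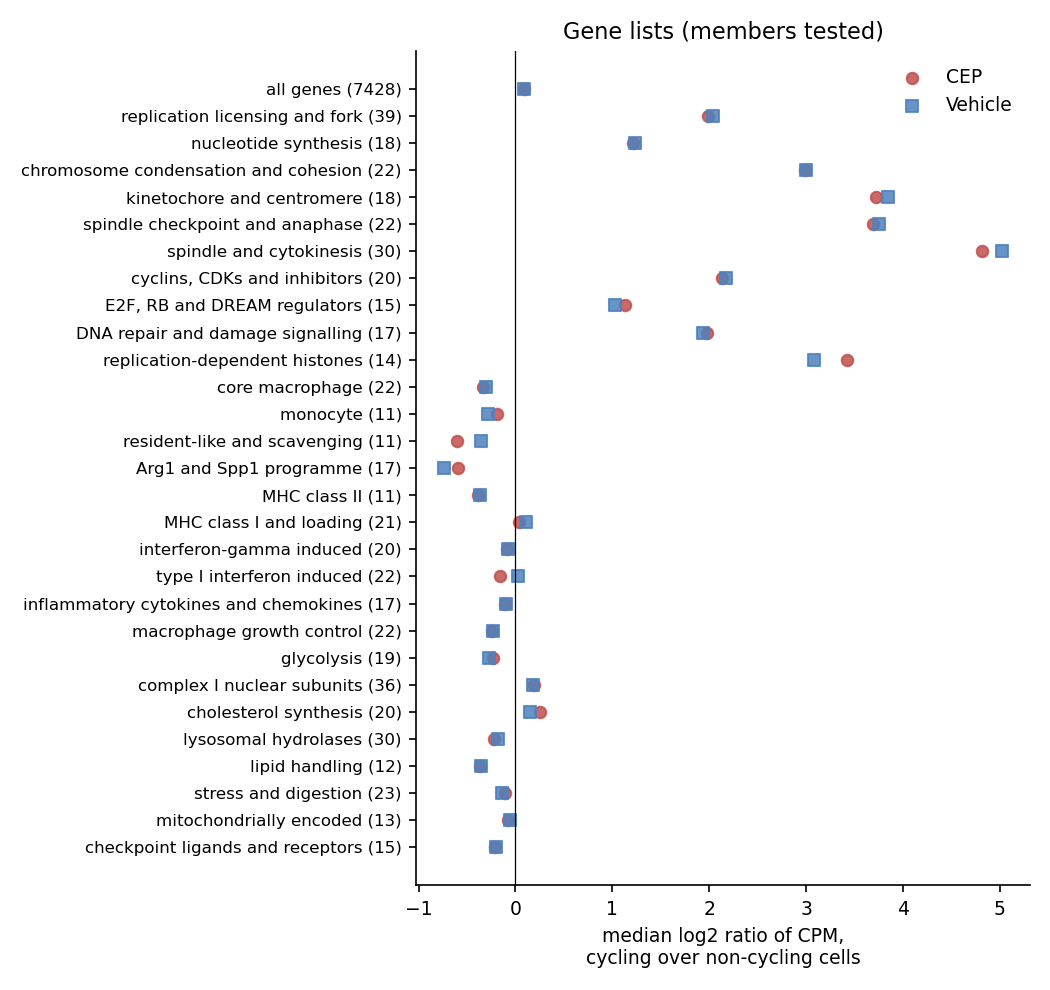
Median log2 ratio of CPM, cycling over non-cycling cells, over the tested members of each gene list (number in brackets), for CEP (circles) and Vehicle (squares). The cell cycle lists lie between 1.02 and 5.02, all genes at 0.09 and 0.08, and the core macrophage, Arg1 and Spp1, and MHC class II lists below 0.

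Promoter windows are shown for 4 of these genes because the mitotic and the replication group differ in the letters near their starts. The windows are RefSeq sequences of GRCm38.p6 (mm10), 250 bases before to 50 after the gene start, 5′ to 3′ on the gene's strand. Capitals mark 3 motifs, each searched on either strand and with overlaps allowed. The E2F motif searched was GCGGGAA. The box with the letters CCAAT was searched as its name spells it. The CHR element was searched in the form TTTGAA and in the variant form with the letters TTCGAA. Cenpf lies at chr1:189688037-189688336 on the minus strand, Kif11 at chr19:37376132-37376431 on the plus strand, Plk1 at chr7:122159185-122159484 on the plus strand and Mcm3 at chr1:20820263-20820562 on the minus strand.
Cenpf: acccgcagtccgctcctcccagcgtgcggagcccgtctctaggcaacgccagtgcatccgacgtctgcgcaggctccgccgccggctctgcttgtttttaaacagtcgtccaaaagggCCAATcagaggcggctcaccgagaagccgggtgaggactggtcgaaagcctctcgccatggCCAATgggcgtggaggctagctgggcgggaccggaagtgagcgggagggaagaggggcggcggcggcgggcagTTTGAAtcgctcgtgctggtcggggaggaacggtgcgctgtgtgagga
Kif11: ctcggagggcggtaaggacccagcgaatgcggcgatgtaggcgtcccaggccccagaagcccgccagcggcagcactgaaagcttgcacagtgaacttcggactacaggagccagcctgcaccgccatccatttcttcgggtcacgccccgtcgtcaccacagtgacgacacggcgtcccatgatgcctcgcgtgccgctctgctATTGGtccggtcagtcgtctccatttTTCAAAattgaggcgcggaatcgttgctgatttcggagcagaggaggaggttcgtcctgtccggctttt
Plk1: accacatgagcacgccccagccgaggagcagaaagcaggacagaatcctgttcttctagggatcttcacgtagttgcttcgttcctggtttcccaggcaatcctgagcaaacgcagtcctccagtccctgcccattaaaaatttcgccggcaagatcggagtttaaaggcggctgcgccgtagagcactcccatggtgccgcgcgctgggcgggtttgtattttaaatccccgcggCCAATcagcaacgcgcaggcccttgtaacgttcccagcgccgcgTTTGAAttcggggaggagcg
Mcm3: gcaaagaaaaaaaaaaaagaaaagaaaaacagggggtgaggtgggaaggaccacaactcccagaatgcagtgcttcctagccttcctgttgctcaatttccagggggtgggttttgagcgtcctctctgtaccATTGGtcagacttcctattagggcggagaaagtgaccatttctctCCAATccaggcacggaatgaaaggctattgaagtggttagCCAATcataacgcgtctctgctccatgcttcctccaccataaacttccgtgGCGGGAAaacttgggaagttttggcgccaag
The Cenpf window held CCAAT boxes 132 and 71 bases before the start and a CHR element 3 bases after it, Kif11 a CCAAT box 45 and a CHR element 19 bases before, and Plk1 a CCAAT box 14 bases before and a CHR element 31 bases after. Mcm3 held CCAAT boxes 117, 72 and 32 bases before the start and the E2F motif 20 bases after.

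Of 27 spindle and cytokinesis genes matched by symbol, 24 of 30 windows (80.0%) held a CHR element and none the E2F motif. Of 30 matched replication genes, 18.4% of 38 windows held a CHR element and 36.8% the E2F motif. Among 32851 windows of all genes the shares were 19.2% and 4.60%, and among the 7619 windows of tested genes 13.8% and 8.66%. Over the 295 matched genes of the 384 higher in cycling cells, 36.2% of windows held a CHR element, 58.0% a CCAAT box and 22.3% the E2F motif, against 37.3% with a CCAAT box among tested genes. Of the 20 matched genes lower in cycling cells, 3 of 23 windows held a CHR element and 4 a CCAAT box. A match is a run of letters and not a shown site. Other forms of the E2F motif were not searched, so a window without a match may still hold one.

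Macrophage identity genes mostly held a somewhat smaller share of UMIs in cycling cells. No gene of the 22 in the core macrophage list passed the 2-fold limit in either direction in both libraries. Of all genes, 5.17% passed it upward and 0.35% downward. The list medians were -0.34 and -0.31, and 1 gene in CEP and 2 in Vehicle lay above the all-gene median. The list summed to 31724 and 32386 CPM in cycling cells of CEP and Vehicle against 43095 and 42684 CPM in non-cycling cells. Apoe, a lipid carrier, was at 11511 and 11752 CPM in cycling cells of CEP and Vehicle against 17112 and 16682 CPM in non-cycling cells, ratios of -0.57 (-0.58 to -0.56) and -0.51 (-0.51 to -0.50). Ms4a7, a tetraspan protein of mature macrophages, had the lowest ratios, -1.02 and -0.72, and Cx3cr1, the fractalkine receptor, the highest, 0.23 and 0.36. Among cells of 10000 to 20000 UMIs Ms4a7 stood at -0.64 in CEP. Spi1 (PU.1) and the Fc receptor Fcgr1 had ratios of 0.04 and 0.02 and 0.00 and 0.14. Since CPM are shares, a smaller share of UMIs need not mean fewer molecules per cell, and cycling cells held more UMIs in all, by the medians given above.

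Growth control genes showed small differences. Csf1r had ratios of -0.21 (-0.26 to -0.17) and -0.16 (-0.20 to -0.12), and the restraining factor Maf -0.37 and -0.29. Klf4, a factor that also restrains division, had ratios of -0.65 and -0.90. Slc7a5, a transporter of large amino acids, had the highest ratios of the list, 0.70 and 0.82, and Myc 0.06 and 0.29. None of the 22 tested genes passed the limit in both libraries.

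Genes of the Arg1 and Spp1 programme, which marks hypoxic tumour macrophages, had medians of -0.59 and -0.73, with no gene of 17 past the limit in both libraries. Arg1, arginase, was at 571 and 459.9 CPM in cycling cells of CEP and Vehicle against 926 and 888 CPM in non-cycling cells, ratios of -0.70 (-0.74 to -0.65) and -0.95 (-0.99 to -0.91). Vegfa, an angiogenic factor, was at 164 and 149 CPM in cycling cells of CEP and Vehicle against 334 and 296 CPM in non-cycling cells, and Ndrg1 and Hmox1, stress-induced genes, had ratios of -0.92 and -1.29 and -0.83 and -1.11. Spp1 (osteopontin) went the other way at 0.08 and 0.17, but among cells of 10000 to 20000 UMIs in both states it stood at -0.20 and -0.22. The glycolytic genes, with medians of -0.23 and -0.27 and Aldoc at -0.91 and -1.09, and the lysosomal hydrolases, at -0.22 and -0.18, were slightly lower. Complex I subunits, at 0.19 and 0.19, and cholesterol synthesis genes, at 0.26 and 0.15 with Fdps at 0.60 and 0.46, were slightly higher.

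Antigen presentation genes differed between the class II and class I lists in their median ratios. MHC class II genes had medians of -0.38 and -0.36 over 11 genes, none past the limit. H2-Eb1, a class II beta chain, was at 1987 and 2789 CPM in cycling cells of CEP and Vehicle against 3382 and 4425 CPM in non-cycling cells, and the invariant chain Cd74 had ratios of -0.66 and -0.60. Ifi30, a lysosomal reductase of the same list, had ratios of 0.24 and 0.31. MHC class I genes had medians of 0.03 and 0.11: the peptide transporter Tap1 had ratios of 0.35 and 0.38 and the immunoproteasome subunit Psmb8 0.35 and 0.39, while the heavy chain H2-D1 had -0.48 and -0.39. The summed class I list was lower in cycling cells, at 8274 CPM in CEP and 10012 CPM in Vehicle. In non-cycling cells it was at 9398 and 10772 CPM. The checkpoint ligands Cd274 (PD-L1) and Pdcd1lg2 (PD-L2) had ratios of -0.52 and -0.62 and -1.08 and -1.03, and Pdcd1lg2 was among the 26 lower genes.

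The lowest ratios by rank belonged to Tcp11l2, Fbxo32, Kdm5b and Tnfrsf9, which are in no list. Fbxo32, a ubiquitin ligase subunit of resting and starved cells, was at 7.84 and 6.80 CPM in cycling cells of CEP and Vehicle against 34.4 and 27.0 CPM in non-cycling cells, ratios of -2.13 (-2.49 to -1.80) and -1.98 (-2.31 to -1.68). Kdm5b, a histone H3 lysine 4 demethylase, was at 5.32 and 4.05 CPM in cycling cells of CEP and Vehicle against 19.5 and 23.4 CPM in non-cycling cells, and Tnfrsf9 (4-1BB), a costimulatory receptor, at 18.8 and 24.9 CPM in cycling cells of CEP and Vehicle against 77.7 and 84.8 CPM in non-cycling cells. Tcp11l2 had ratios of -2.08 and -2.33. Among cells of 10000 to 20000 UMIs, ratios of Tnfrsf9 were -2.28 and -1.90. Single members of other lists were also past the limit: the chemokine Ccl5 had ratios of -1.55 and -1.55, Slfn5, an interferon-induced gene, -1.64 and -1.20, and Cbr2, a resident-like marker, -1.77 and -1.02, though among cells of 10000 to 20000 UMIs Cbr2 stood at 0.76 and 0.15 and Ccl5 at -0.28 and -1.01.

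Neutrophil genes formed the next block, and 4 of 6 tested neutrophil markers were past the limit downward. The alarmin S100a8 was at 206 and 139.8 CPM in cycling cells of CEP and Vehicle against 489 and 359 CPM in non-cycling cells. Its partner S100a9 was at 406 and 228 CPM in cycling cells of CEP and Vehicle against 952 and 659 CPM in non-cycling cells. Retnlg and G0s2 had ratios of -1.64 and -1.88 and -1.26 and -1.43. All 7 markers summed to 736 and 453 CPM in cycling cells against 1735 and 1249 CPM in non-cycling cells, and S100a8 was found in only 114 and 119 cycling cells. Without cells of 3 or more S100a8 and S100a9 UMIs, 14 genes were lower in both libraries in place of 26, and 13 of them were shared with the 26. This choice of cells acts on S100a8 and S100a9 themselves, so their own ratios in the cells left are not read. Without the highest doublet scores S100a8, S100a9 and Retnlg stood at -0.63, -0.57 and -0.35 in CEP. The part of neutrophil RNA in these ratios was not tested.

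Cells were then thinned to 5000 UMIs each and counted as positive with at least 2 UMIs of a gene or gene pair, which left 596 and 742 cycling cells (13 and 30 left out) and 2192 and 2603 non-cycling cells (895 and 856 left out). Cells positive for Arg1 plus Mmp12 were 55.4% (51.3 to 59.4) of cycling against 67.2% (65.2 to 69.2) of non-cycling cells in CEP, and 48.9% (45.3 to 52.6) against 62.7% (60.8 to 64.6) in Vehicle. Unthinned, these shares were 71.6% and 66.8% in CEP and 71.4% and 65.6% in Vehicle, the opposite order. Cx3cr1 positive cells were 39.9% against 30.3% in CEP and 36.8% against 27.1% in Vehicle. Cd274 positive cells were 7.38% against 12.2% in CEP and 9.57% against 17.6% in Vehicle. Spp1 positive cells were 88.3% against 81.7% and 86.0% against 76.6%, and Trem2 positive cells 52.2% against 59.9% and 50.3% against 56.7%. After thinning, the cycling cells of both libraries thus held a smaller share positive for Arg1 plus Mmp12, Cd274 and Trem2 and a larger share positive for Cx3cr1 and Spp1. Cells of unlike original depth stay in this comparison, and among cells of 10000 to 20000 UMIs the Spp1 level was lower in cycling cells, at log2 ratios of -0.20 and -0.22. Unthinned, Cd274 positive cells were 30.05% against 21.2% in CEP and 36.9% against 31.2% in Vehicle, and Trem2 positive cells 86.7% against 67.0% and 86.5% against 69.3%, again the opposite order. Unthinned Cx3cr1 shares, 75.04% against 41.4% and 75.4% against 40.6%, and Spp1 shares, 95.4% against 74.3% and 93.8% against 74.99%, had the same order.

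In other gates, the monocyte genes Ly6c2 and Plac8 marked 7.89% of cycling against 7.07% of non-cycling cells in CEP and 5.80% against 8.53% in Vehicle. Folr2 and Fcna, of resident-like cells, marked 49 of 596 cycling against 263 of 2192 non-cycling cells in CEP and 9.16% against 9.68% in Vehicle. The interferon chemokines Cxcl9 and Cxcl10 marked 13.1% against 11.2% in CEP and 20.5% against 16.1% in Vehicle. Unthinned, the 3 gates held 14.3%, 21.0% and 25.8% of cycling against 9.94%, 15.9% and 12.6% of non-cycling cells in CEP, and 15.3%, 20.2% and 36.7% against 11.5%, 15.004% and 18.4% in Vehicle. Ccl8 marked 24.7% of cycling against 28.6% of non-cycling cells in CEP and 25.3% against 26.0% in Vehicle, Mgl2 and Cd209a 16.4% against 19.1% and 20.5% against 22.4%, and Mrc1 30.2% against 33.8% and 27.6% against 30.3%. Cycling cells were found in all 14 gates, and the Nos2 gate held 6 and 8 of them.

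**Figure D4:**
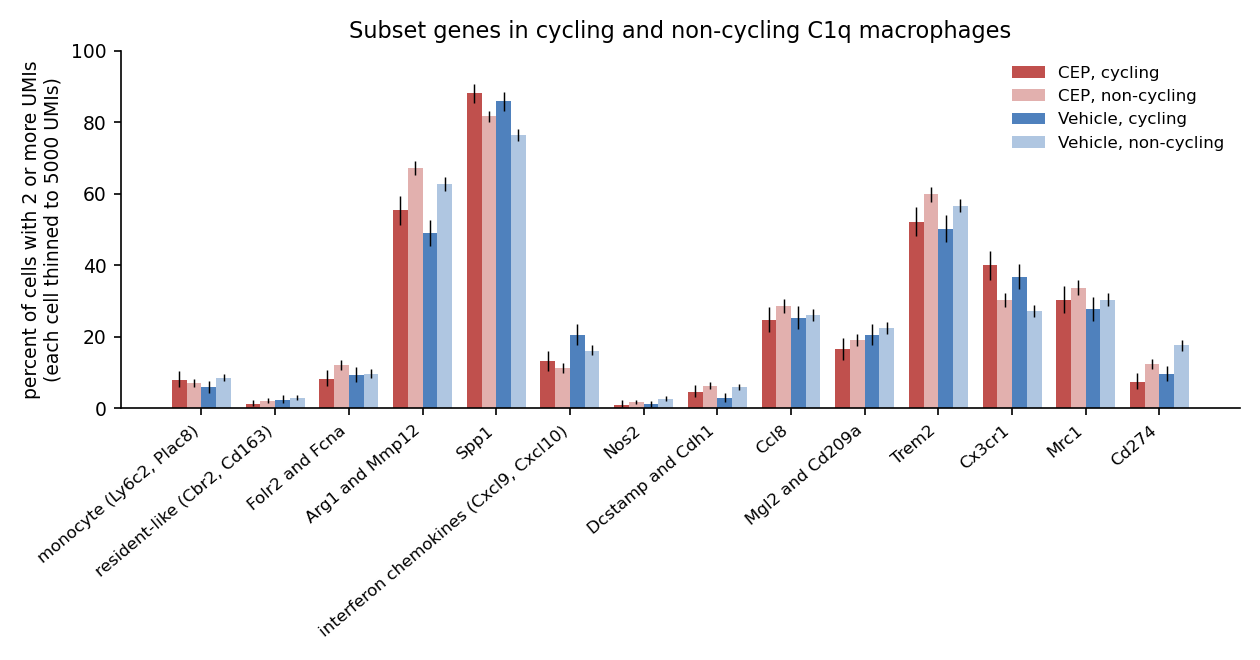
Percent of cells with at least 2 UMIs of the named genes, after thinning each cell to 5000 UMIs, in cycling (dark) and non-cycling (light) C1q macrophages of CEP (red) and Vehicle (blue). Bars start at 0 and error bars are exact binomial 95% intervals, which cover counting error only. Arg1 and Mmp12 positive cells are 55.4% of cycling and 67.2% of non-cycling cells in CEP and 48.9% and 62.7% in Vehicle.

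The cycling cells were divided by their thinned UMIs of an S phase and a G2/M list, neither holding Mki67 or Top2a. The G2/M sum was the larger in 77.9% (74.3 to 81.1) of cells in CEP and 74.0% (70.7 to 77.1) in Vehicle, and the S sum in 125 of 596 and 178 of 742 cells. Near the line, 95 and 130 cells lay within 5 UMIs of equality, and whether the cells form a range or separate types was not tested. The lists differ in length, so the shares order the cells and do not time the phases. Mki67 and Top2a, which chose the cells, had log2 ratios, G2/M-rich over S-rich, of 0.88 and 1.07 and 0.74 and 0.95. A threshold on them favours G2/M-rich cells, so the larger G2/M share is not independent of the choice. Among genes outside both lists, Plk1 had log2 ratios, G2/M-rich over S-rich, of 3.18 and 3.08, Ccnb1 2.31 and 2.87, and Ccnd1 -0.87 and -0.97. C1qa stood at 0.02 and 0.01 and Apoe at -0.03 and 0.02, close to 0 in both libraries. Other macrophage genes were not all so: the summed core macrophage list stood at -0.14 and -0.08. The summed resident-like list stood at -0.19 and -0.24 and the inflammatory list at -0.32 and -0.17, while MHC class II stood at 0.04 and 0.08. The summed type I interferon genes had ratios of 0.21 and 0.53.

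CEP and Vehicle were last compared within the cycling cells, over 7552 genes. At a log2 ratio of 0.5 in size, 56 genes were higher in CEP (0.742%) and 52 lower (0.689%), against 34 (0.45%) and 23 (0.305%) in non-cycling cells, which were summed over more UMIs. Genes past the fold in both states numbered 7 higher and 12 lower. Beside a median of 0.01 for all genes, the medians were -0.12 for replication-dependent histones, -0.10 for spindle genes, -0.06 for kinetochore genes and -0.02 for replication genes, with no gene of these 4 lists past the fold. Of 32 spindle genes 24 lay below the all-gene median and 8 above it, and of 15 histone genes 10 lay below and 5 above. Birc5 was at 330.2 CPM in CEP and 355 CPM in Vehicle, -0.10 (-0.17 to -0.04). Parp1 was at 106 and 103 CPM, 0.04 (-0.07 to 0.16), and in non-cycling cells its ratio was 0.21 (0.12 to 0.30). The counting interval of the cycling value includes 0.

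The median of 22 type I interferon induced genes was -0.34 in cycling cells, CEP over Vehicle, with 7 past the fold downward, against -0.10 and none in non-cycling cells. Among cells of 10000 to 20000 UMIs the medians were -0.32 in cycling and -0.23 in non-cycling cells. Ifit1, an RNA-binding antiviral protein, was at 5.12 CPM in CEP and 16.3 CPM in Vehicle, a log2 ratio of -1.66 (-2.14 to -1.23), and was detected in 38 and 87 cells. In non-cycling cells its ratio was -0.06 (-0.26 to 0.14). Rsad2 (viperin), Ifit3 and Ifit2 had ratios of -1.32, -1.13 and -0.97 in cycling cells against -0.41, 0.09 and -0.14 in non-cycling cells. Isg15, a ubiquitin-like modifier, had -0.43 against -0.07, and Ifi27l2a stood on the other side at 0.11 and 0.18. Whether the cycling and non-cycling ratios differ was not tested. Among cells of 10000 to 20000 UMIs the Ifit1 ratio was -1.38.

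Interferon-gamma induced genes were lower in CEP in both states, with medians of -0.46 in cycling and -0.41 in non-cycling cells and 6 and 7 genes past the fold. Socs1, a feedback inhibitor, was at 36.3 and 67.6 CPM in cycling cells, -0.90 (-1.08 to -0.72), and had -0.78 in non-cycling cells. Gbp2, a guanylate-binding protein, had -0.73 in cycling and -0.75 in non-cycling cells. Cxcl10, a T cell chemokine, was at 99.0 and 192 CPM, -0.96 (-1.06 to -0.85), against -0.33 in non-cycling cells. MHC class II genes had medians of -0.37 and -0.34 and class I genes -0.30 and -0.24, with H2-Ab1 at -0.46 and -0.37. Serpina3g, Ifi205 and Sectm1a were among the 10 lowest genes, at -0.91, -0.85 and -0.85.

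Chemokines differed in direction. The monocyte chemokines Ccl2, Ccl7 and Ccl12 were lower in CEP cycling cells, at -0.48 (-0.56 to -0.41), -0.62 (-0.71 to -0.52) and -0.31 (-0.35 to -0.26), against non-cycling ratios of 0.10, 0.14 and 0.10. Ccl2 was at 219 CPM in CEP and 306 CPM in Vehicle cycling cells. Among cells of 10000 to 20000 UMIs these 3 ratios were -0.09, -0.28 and -0.17. The neutrophil chemokines Cxcl1, Cxcl2 and Cxcl3 were higher, at 0.62, 0.66 and 1.20, against -0.02, 0.30 and 0.32. Cxcl3 was detected in 81 and 53 cycling cells, and its ratio was 0.68 among cells of 10000 to 20000 UMIs and 1.99 in cells of 5 or more Mki67 plus Top2a UMIs, where that of Cxcl1 was 0.32. Without the Krt8, Ctsk and Gpnmb exclusions Cxcl1 stood at 1.18.

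Further genes higher in CEP cycling cells were Inhba, the activin A subunit, at 16.1 against 4.48 CPM, 1.84 (1.41 to 2.29), detected in 55 and 31 cells, with 0.16 in non-cycling cells. Mmp19, a metalloproteinase, Enpp2 (autotaxin), S100a6, Traf1 and Mir22hg had ratios of 0.93, 0.93, 0.90, 0.78 and 0.75, and that of S100a6 was 0.53 among cells of 10000 to 20000 UMIs and 2.62 without the Krt8, Ctsk and Gpnmb exclusions. Thinned to 5000 UMIs, Mir22hg stood at 0.26 and Traf1 at 1.27. S100a9 had 0.83 (0.77 to 0.90), but 0.11 without cells of 3 or more S100a8 and S100a9 UMIs, a choice that acts on the gene itself, and 1.80 without the highest doublet scores, beside neutrophil markers that summed to 736 CPM in CEP and 453 CPM in Vehicle cycling cells. The stress and digestion list had a median of 0.25 in cycling and 0.14 in non-cycling cells, and the mitochondrially encoded genes 0.17 and 0.21. Their part in the other differences was not tested.

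The most extreme ratios rested on single cells. Mcpt1 and Mcpt2, mast cell proteases, had 437 and 293 UMIs in CEP cycling cells, of which 1 cell held 99.1% and 98.6%. The granzyme gene Gzmc, of lymphocytes, had 93 UMIs in CEP and 514 in Vehicle cycling cells, of which 1 cell held 95.7% and 76.7%. These genes describe those cells and not the groups.

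**Figure D5:**
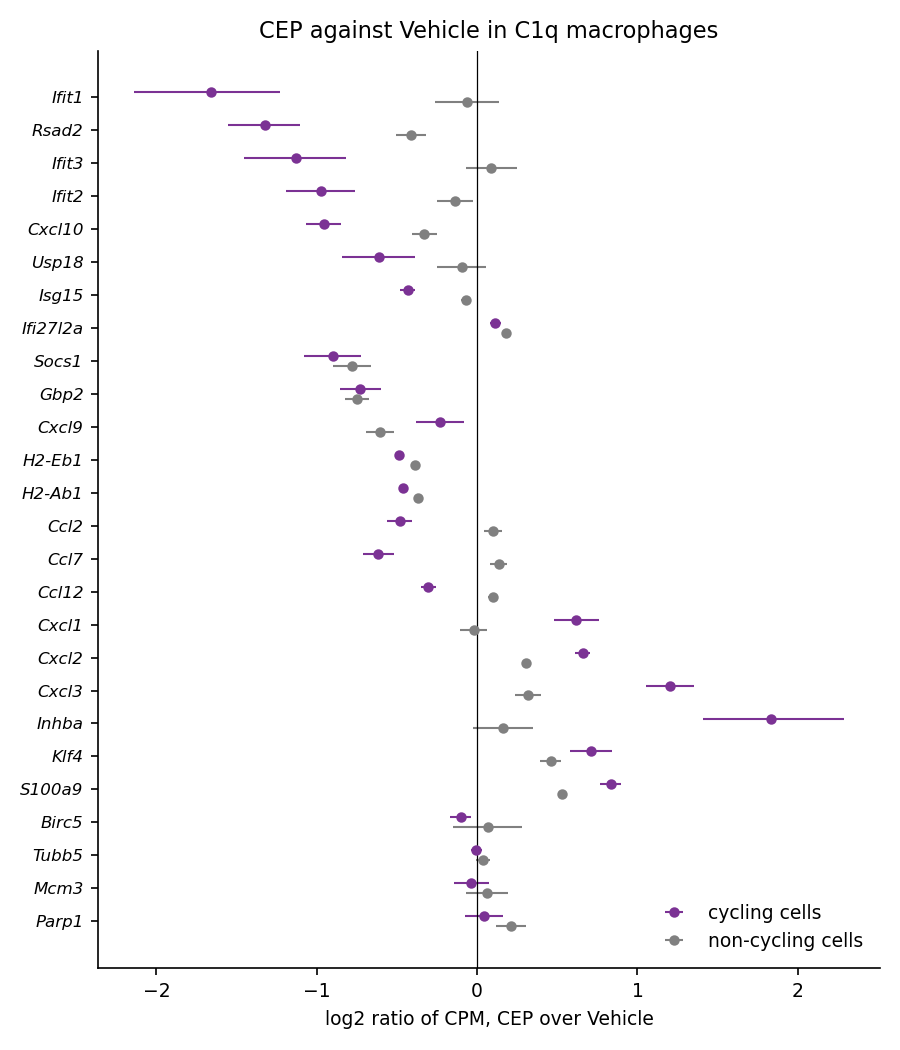
Log2 ratio of CPM, CEP over Vehicle, for 26 genes, in cycling (purple) and non-cycling (grey) C1q macrophages, with 95% counting intervals. Ifit1 lies at -1.66 in cycling and -0.06 in non-cycling cells, Ccl2 at -0.48 and 0.10, and the cell cycle genes Birc5, Tubb5 and Mcm3 near 0.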

How the data were processed

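Raw counts of UMIs per gene and barcode were deposited by the authors, with Cell Ranger 7.1.0 named per the file headers, and Cell Ranger 5.0.1 and mm10 per the submitters' processing notes. The counting of introns is not stated there. Members, gene lists and most alternatives were chosen with earlier results of these data known. UMIs were summed over the cells of a state in each library and given per 1000000. Log2 ratios had 0.5 UMI added to each sum, or 0.5 CPM to each mean CPM per cell, and genes needed a mean of 10 CPM. Ratio intervals are exact conditional binomial, shares Clopper-Pearson, ratios of shares log-normal. Past the fold meant a log2 ratio of 1 in both libraries for state and 0.5 for CEP over Vehicle. No test or p-value was computed. Scrublet's automatic threshold marked 1 cell per library, so it did not work, and the highest 8% of scores were left out only as an alternative. The ratio, interval and fold calculations were tested on simulated sums of UMIs with counting error only. That simulation held no spread between cells and did not cover shares, thinning, gates, phases or motifs.

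Genes were named by a rule: the 12 highest and 12 lowest by state, the 10 highest and 10 lowest by group, the 3 most abundant and the highest and lowest members of each list, and the marker and series axis genes. Further list members in the text were chosen after their values were seen, as were the depth window, the neutrophil and single-cell alternatives, the minimum for flagging (0.25 on the log2 scale) and the limit of alternatives to the genes in the text. A gene was said to reverse only if it was past the fold. Python 3.11.15 was used with scanpy 1.11.5, scipy 1.17.1, numpy 2.4.6, matplotlib 3.10.9 and pandas 2.3.3.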

Additional observations from a re-analysis of the deposited data

Results flagged for a closer look

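The results here had opposite signs in the libraries or the cell states, with both counting intervals away from 0 and a log2 ratio of at least 0.25 in size in one of them. The differences between libraries or states were not tested.

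For CEP over Vehicle, Ccl2 stood at -0.48 in cycling and 0.10 in non-cycling cells, Ccl7 at -0.62 and 0.14, and Ccl12 at -0.31 and 0.10. Among cycling cells of 10000 to 20000 UMIs these 3 genes stood at -0.09, -0.28 and -0.17. E2f6, a repressor of the E2F family, stood at -0.41 and 0.45, and Cdc20, the activator of anaphase, at -0.22 and 0.48, the latter on 81 and 73 UMIs in non-cycling cells. For cycling over non-cycling cells, Ccl7 stood at -0.68 in CEP and 0.070 in Vehicle, Ccl12 at -0.13 and 0.28, Cxcl1 at 0.20 and -0.44, and the heat shock gene Hspa1b at 0.13 and -0.37. Gzmc stood at -0.47 in CEP and 5.44 in Vehicle, with CEP over Vehicle at -1.99 in cycling and 3.93 in non-cycling cells. Mcpt1 stood at 3.00 in CEP and -4.78 in Vehicle. Single cells held most UMIs of both genes in cycling cells, as given in the report, and Mcpt1 had 1 UMI in Vehicle cycling cells. In non-cycling cells 1 cell held 52.9% of Mcpt1 and 63.3% of Gzmc UMIs in CEP and 95.8% and 96.3% in Vehicle.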

How the results depend on the processing

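No paired analysis was possible because the groups hold 1 library each and the labels give no replicate numbers. Each group is 1 library, and the cause of the changes below was not tested.

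The cycling share in CEP and Vehicle was 17.9% and 19.2% at 2 or more Mki67 plus Top2a UMIs, 10.9% and 12.2% at 5 or more, 10.3% and 10.4% thinned to 5000 UMIs, and 6.38% and 7.77% over all barcodes (log2 ratio -0.28). In Vehicle it was 16.5% with C1q genes at 0.6% and 14.3% with Mki67 plus Top2a at 0.03% of UMIs. Genes higher and lower in cycling cells numbered 171 and 9 at a mean of 30 CPM, 582 and 46 at 3 CPM, and 51 lower with the mean CPM per cell, and 14 lower without cells of S100a8 and S100a9. Genes higher and lower in CEP cycling cells numbered 204 and 206 when thinned, 19 and 23 at 30 CPM, 200 and 165 at 3 CPM, 165 and 122 in the depth window (10000 to 20000 UMIs), and 132 higher without the Krt8, Ctsk and Gpnmb exclusions, where 68.0% of calls were higher in place of 51.9% in the main count.

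Among the list medians taken as main results, 19 moved beyond the median counting interval of their members and are given here. Among the other list medians 53 moved too and are not given. Of gate ratios, 10 moved for the Cx3cr1, Spp1, Cd274 and Arg1 and Mmp12 gates, given below, and 14 for other gates, not given. Thinned, Vehicle Arg1 and Spp1 genes were at -0.83, Vehicle MHC class II at -0.39 and type I interferon, CEP over Vehicle, at -0.52. By mean CPM per cell, with 0.5 CPM added to each mean, spindle genes were at 3.93 and 4.12 and MHC class II at -0.25 and -0.23. Vehicle MHC class II was at -0.39 without high doublet scores, at 5 or more UMIs and without S100a8 and S100a9 cells; CEP over Vehicle it was -0.34 at 5 or more UMIs, -0.43 without the exclusions and -0.44 in the depth window, and CEP MHC class II was -0.42 in both of the latter. In the depth window CEP spindle genes were at 5.24, core macrophage genes at -0.28 and -0.27 and Vehicle Arg1 and Spp1 genes at -0.60. Gate ratios (log2) moved for Cx3cr1 in CEP to 0.20 at 1 UMI and 0.16 at 8000 UMIs, Spp1 to 0.17 in CEP at 4 UMIs and 0.10 in Vehicle at 8000 UMIs, Arg1 and Mmp12 to -0.53 in CEP and -0.63 in Vehicle at 4 UMIs and -0.19 in Vehicle at 1 UMI, and Cd274 to -1.58 and -1.73 at 4 UMIs and -0.35 in Vehicle at 1 UMI. The G2/M share in Vehicle was 79.0% at 5 or more UMIs.

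Directions reversed in these cases. By mean CPM per cell, non-cycling CEP over Vehicle medians went to 0.037 for monocyte genes, -0.077 for resident-like genes and -0.093 for inflammatory genes, and the Vehicle mitochondrial median, cycling over non-cycling, to 0.018. In the depth window the inflammatory median went to -0.0093, the mitochondrial one to 0.025, Cbr2 to 0.76 in CEP and 0.15 in Vehicle, Gzmc, CEP over Vehicle, to 0.15 and Vehicle Mcpt1 to 0.11. Gzmc went to 6.33 without high doublet scores, CEP Mcpt1 to -2.53 without its top cell, and G0s2 and S100a8, CEP over Vehicle, to -1.01 and -0.029 without S100a8 and S100a9 cells. Leaving out those cells acts on S100a8 itself, so its value there is not read.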
